A study of Mus musculus with 28 samples.

Results

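The 38 genes described here are the immediate early and acute stress genes of the mouse kidney, a set of rapidly induced genes chosen by symbol and made up of Fos, Jun, Egr, Nr4a, Ier, Klf, Dusp and related families. All 38 were present in a table of 56748 genes, and 36 were among the 17573 genes that passed the filter on low counts and were tested. Fosl1, with 7 counts over all 28 libraries, and Egr3, with 130, were below that filter, so no difference was tested for either.

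The libraries came from kidneys of untreated mice with an acetylation mimetic (Q), a deacetylated mimetic (R) or the wild-type form (WT) of aquaporin-3, through which water and glycerol leave principal cells of the collecting duct on their blood side. There were 5 male Q, 5 male R, 5 male WT, 5 female Q, 3 female R and 5 female WT libraries. No age, strain, line or founder is given for any group in the sources used here, nor whether the mimetics were homozygous. All mice were on a 12 h light and dark cycle, and kidneys were removed 2 to 5 h after lights on (zeitgeber time), decapsulated and frozen, in all groups alike. The time between death and freezing is not given. Nothing in the labels ties a library to an animal of its own, so the p-values measure the spread between these libraries, which may be technical.

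Immediate early genes are transcribed within minutes of a signal, without new protein synthesis, from promoters on which serum response factor, ternary complex factors and CREB are already bound or are activated by phosphorylation. Their products include the AP-1, Egr and Nr4a transcription factors, together with inhibitors that end the response: phosphatases of MAP kinases (Dusp1, Dusp5, Dusp6), a protein that destabilises messages with AU-rich elements (Zfp36), and an inhibitor of cytokine signalling (Socs3). In kidney the same genes are known to be induced by ischaemia, by handling of the tissue and by osmotic stress, and their messages are short-lived.

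Proximal promoters of some of the members that varied together in these libraries are shown first. CRE and serum response sites are among the best known control elements of the family. Windows were taken from RefSeq on GRCm38.p6, from 250 bases before to 50 bases after each gene's start, and 29 of the 38 members had one. For 3 members with several windows the first was used. Arc, Egr1, Egr3, Fosl1, Ier2, Klf10, Myc, Nfkbiz and Trib1 had none. The counts are on GRCm39, so genes were matched by symbol only. The windows printed are chr12:85473640-85473939 on the plus strand for Fos, chr7:28379179-28379478 on the minus strand for Zfp36, chr8:84978699-84978998 on the minus strand for Junb, chr1:134079106-134079405 on the minus strand for Btg2, chr17:26508423-26508722 on the minus strand for Dusp1, chr15:101266596-101266895 on the plus strand for Nr4a1 and chr10:80929841-80930140 on the plus strand for Gadd45b. Each is written 5′ to 3′ on the strand of its gene. Capitals mark TGACG, the core of the CRE bound by CREB family factors, its reverse complement CGTCA, the full CRE TGACGTCA, the CArG box bound by serum response factor, and TATAAA. Gadd45b is included as the member with the clearest difference between the sexes.
Fos: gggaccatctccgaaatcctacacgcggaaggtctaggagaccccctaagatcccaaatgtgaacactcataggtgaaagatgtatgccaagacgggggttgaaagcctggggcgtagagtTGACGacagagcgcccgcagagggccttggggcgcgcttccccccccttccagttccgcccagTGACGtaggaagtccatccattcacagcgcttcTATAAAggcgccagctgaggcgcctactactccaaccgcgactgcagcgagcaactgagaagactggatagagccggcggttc
Zfp36: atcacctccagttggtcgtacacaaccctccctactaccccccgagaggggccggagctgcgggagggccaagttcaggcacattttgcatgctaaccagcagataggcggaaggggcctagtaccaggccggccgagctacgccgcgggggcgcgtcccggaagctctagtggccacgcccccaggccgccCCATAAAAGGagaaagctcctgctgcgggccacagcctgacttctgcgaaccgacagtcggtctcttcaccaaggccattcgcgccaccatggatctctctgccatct
Junb: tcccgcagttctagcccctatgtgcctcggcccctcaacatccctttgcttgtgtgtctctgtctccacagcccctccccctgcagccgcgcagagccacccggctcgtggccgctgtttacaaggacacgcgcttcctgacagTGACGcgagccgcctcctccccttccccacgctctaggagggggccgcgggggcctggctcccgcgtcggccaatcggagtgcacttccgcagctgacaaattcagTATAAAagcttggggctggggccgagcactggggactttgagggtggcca
Btg2: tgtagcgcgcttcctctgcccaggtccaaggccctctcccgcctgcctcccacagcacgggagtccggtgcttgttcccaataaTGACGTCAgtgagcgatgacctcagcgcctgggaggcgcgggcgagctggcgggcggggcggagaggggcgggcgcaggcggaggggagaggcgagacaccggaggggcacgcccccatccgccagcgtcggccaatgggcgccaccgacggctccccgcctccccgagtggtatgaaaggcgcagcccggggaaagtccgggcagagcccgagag
Dusp1: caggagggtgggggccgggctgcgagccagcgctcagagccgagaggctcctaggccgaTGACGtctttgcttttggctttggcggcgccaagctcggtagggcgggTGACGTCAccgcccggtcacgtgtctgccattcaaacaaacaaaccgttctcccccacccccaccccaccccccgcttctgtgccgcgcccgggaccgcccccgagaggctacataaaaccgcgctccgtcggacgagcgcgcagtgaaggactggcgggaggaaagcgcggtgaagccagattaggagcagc
Nr4a1: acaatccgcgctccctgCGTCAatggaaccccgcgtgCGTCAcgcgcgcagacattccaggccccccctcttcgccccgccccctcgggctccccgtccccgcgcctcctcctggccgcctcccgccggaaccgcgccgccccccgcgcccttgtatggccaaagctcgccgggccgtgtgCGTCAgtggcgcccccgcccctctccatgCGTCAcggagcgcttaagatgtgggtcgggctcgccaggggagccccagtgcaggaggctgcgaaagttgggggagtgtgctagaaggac
Gadd45b: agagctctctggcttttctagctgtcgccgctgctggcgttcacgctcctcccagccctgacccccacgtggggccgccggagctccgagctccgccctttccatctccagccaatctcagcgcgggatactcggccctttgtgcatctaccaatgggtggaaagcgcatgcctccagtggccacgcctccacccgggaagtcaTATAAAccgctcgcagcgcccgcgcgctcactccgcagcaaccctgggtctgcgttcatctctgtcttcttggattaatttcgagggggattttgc

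The CRE core was present on either strand in 15 of the 29 member windows (51.7%), against 21% of 27025 RefSeq windows of the same length. The full CRE, which contains the core on both strands, was in 3 windows (Btg2, Dusp1 and Ppp1r15a; 10.3%), against 1.88% of all windows. Fos had a CRE core at 129 and at 66 bases before its start and TATAAA at 33 bases before it, and Nr4a1 had 4 CRE cores. The CArG box was found in Dusp5, Srf and Zfp36, 10.3% of member windows and 1.57% of all windows. Of Fos and the 10 members that varied with it (below), 9 had a window. The CRE core was in 6 of these 9 and the CArG box in 1. An NF-kB motif, counted but not marked above, was in 4 of the 9. It was in 6 of all 29 member windows (20.7%), against 8.18% of all windows. Jun, Fosb and Egr2 are among the 9 but are not printed, and the windows of Jun and Egr2 held none of the marked motifs. The AP-1 motif TGANTCA was in 0 of 29 windows, against 7.93% of all windows. These are counts of letters within a short window, and binding was not measured. Sites more than 250 bases before a start, in Fos or any other member, were not searched for.

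Levels are in CPM, the count of a gene scaled by library size. Compared per kilobase of exon, the highest members were Jund at 39.9, Gadd45g at 39.8, Rhob at 38 and Ier3 at 33.1 CPM per kilobase on average over the 28 libraries. Jund is the AP-1 subunit expressed constitutively in most tissues, Gadd45g is a stress sensor, and Rhob is an early-response small GTPase. Dusp1 and Jun followed at 26.6 and 21.4 CPM per kilobase, Egr1 stood at 5.72 and Fos at 2.71. The lowest were Fosl1 at 0.00664, Nr4a3 at 0.0521 and Egr3 at 0.0564 CPM per kilobase. Total counts ran from 14825417 to 21403804 per library. Markers of kidney epithelium were abundant in all libraries, the summed level of 4 thick ascending limb markers being 2542 to 5977 CPM. In male Q 4 and female Q 5 mitochondrially encoded genes held 7.74% and 3.94% of counts, the lowest 2 shares of the 28 libraries, and results that turn on these libraries are given without them. The library labelled female WT 2 had Xist at -0.68 log2 CPM, against 7.74 to 8.76 in the other 12 female libraries and -0.79 to 1.08 in males, while the Y-linked Ddx3y was as low in it (-2.01) as in the other females. It was kept in its labelled group, and calls between WT males and females are given without it too.

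The main feature of the members was variation from library to library within each group, widest for Fos, the defining immediate early gene. Fos was at 16.6, 5.68, 4.78, 3.92 and 1.57 CPM in the 5 male Q libraries, at 2.13, 8.15, 12.1, 11.4 and 5.91 CPM in male R and at 9.20, 3.42, 1.94, 2.29 and 1.47 CPM in male WT. In females it was at 1.59, 2.56, 13.4, 7.50 and 5.76 CPM in Q, 0.928, 6.07 and 9.63 CPM in R and 6.17, 11.7, 6.72, 13.6 and 2.46 CPM in WT. All 6 groups overlapped, and the highest library stood 10.5-fold above the lowest in male Q, 6.26-fold in male WT and 10.4-fold in female R. After removal of group means the SD of log2 CPM was 1.14 for Fos, 0.97 for Egr1 and 0.96 for Fosb, but 0.19 for Klf6, 0.18 for Ppp1r15a and 0.17 for Srf, the serum response factor itself. Wide spread was not limited to members that moved with Fos. Nr4a3 (0 to 0.888 CPM), Atf3 and Gadd45g, outside the Fos group defined below, had SDs of 0.73, 0.63 and 0.63. Jun and Zfp36, within it, had 0.55 and 0.50. Counts per library were 0 to 19 for Nr4a3, 14 to 88 for Atf3 and 2 to 119 for Fosb, so counting error adds to their SDs. Gadd45g had 292 to 1984 counts.

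Egr1, a zinc finger factor induced through the same promoter elements as Fos, followed it closely. It was at 54.1, 17.7, 18.4, 10.7 and 6.78 CPM in male Q, 13.9, 50.2, 45.6, 33.4 and 22.8 CPM in male R and 34.8, 8.44, 9.83, 11.8 and 13.3 CPM in male WT. In females Egr1 was at 8.18, 9.78, 48.5, 28 and 13.8 CPM in Q, 7.08, 39.9 and 37.5 CPM in R and 35.5, 41.1, 34.2, 51.1 and 12 CPM in WT. In every group the library highest for Fos was the highest or the next highest for Egr1, and in 5 of the 6 groups, all but male WT, the library lowest for Fos was also the lowest for Egr1.

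Over the 28 libraries, with group means removed from log2 CPM, Fos and Egr1 had a Pearson's r 0.93 and rho 0.90 (permutation p = 1e-05 for each, the smallest that these permutations can give). The correlation of Fos was computed with all 17572 other tested genes, and the members took ranks 1 to 5: Egr1, Zfp36 (r 0.92 and rho 0.89), Junb (r 0.88 and rho 0.87), Btg2 (r 0.77 and rho 0.76) and Ier2 (r 0.77 and rho 0.78). Jun, at rank 7, had r 0.74 and rho 0.66. With p-values adjusted over all genes, 6 of the 35 members tested against Fos passed with a positive r (adjusted p = 0.0251 for the first 4 and 0.039 for Ier2 and Jun), against 0.0455% of all genes. Only 2 genes outside the set did so, Ccn1 (r 0.74), a matricellular early-response gene, and the predicted gene Gm10382 (r 0.72), both named after their values were seen. A single gene passed with a negative r, listed as LTO1 (r -0.78).

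A further 4 members had r above 0.5 without passing over all genes. They were the phosphatase gene Dusp1 (r 0.71 and rho 0.59), the AP-1 gene Fosb (r 0.65 and rho 0.63), the nuclear receptor gene Nr4a1 (r 0.56 and rho 0.45) and Egr2 (r 0.53 and rho 0.55), with unadjusted permutation p for r of 6e-05, 0.00015, 0.00219 and 0.00406 and adjusted p over all genes of 0.105, 0.22, 1 and 1. Without female R 1 and male R 1, the libraries farthest from the median of Fos, r with Fos was still 0.44 (Egr2) to 0.91 (Egr1) for these 10 members. Fos and these 10 are called the Fos group below. The group was chosen on these libraries, so its agreement within them is a description. The next member by r was Nfkbiz at 0.38. Jund, Klf6 and Srf had r of 0.18, -0.03 and 0.03. Nr4a3 had the lowest r of the members, -0.39 (rho -0.32, unadjusted permutation p = 0.0387 for r, adjusted p = 0.123 over the members).

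**Figure D1:**
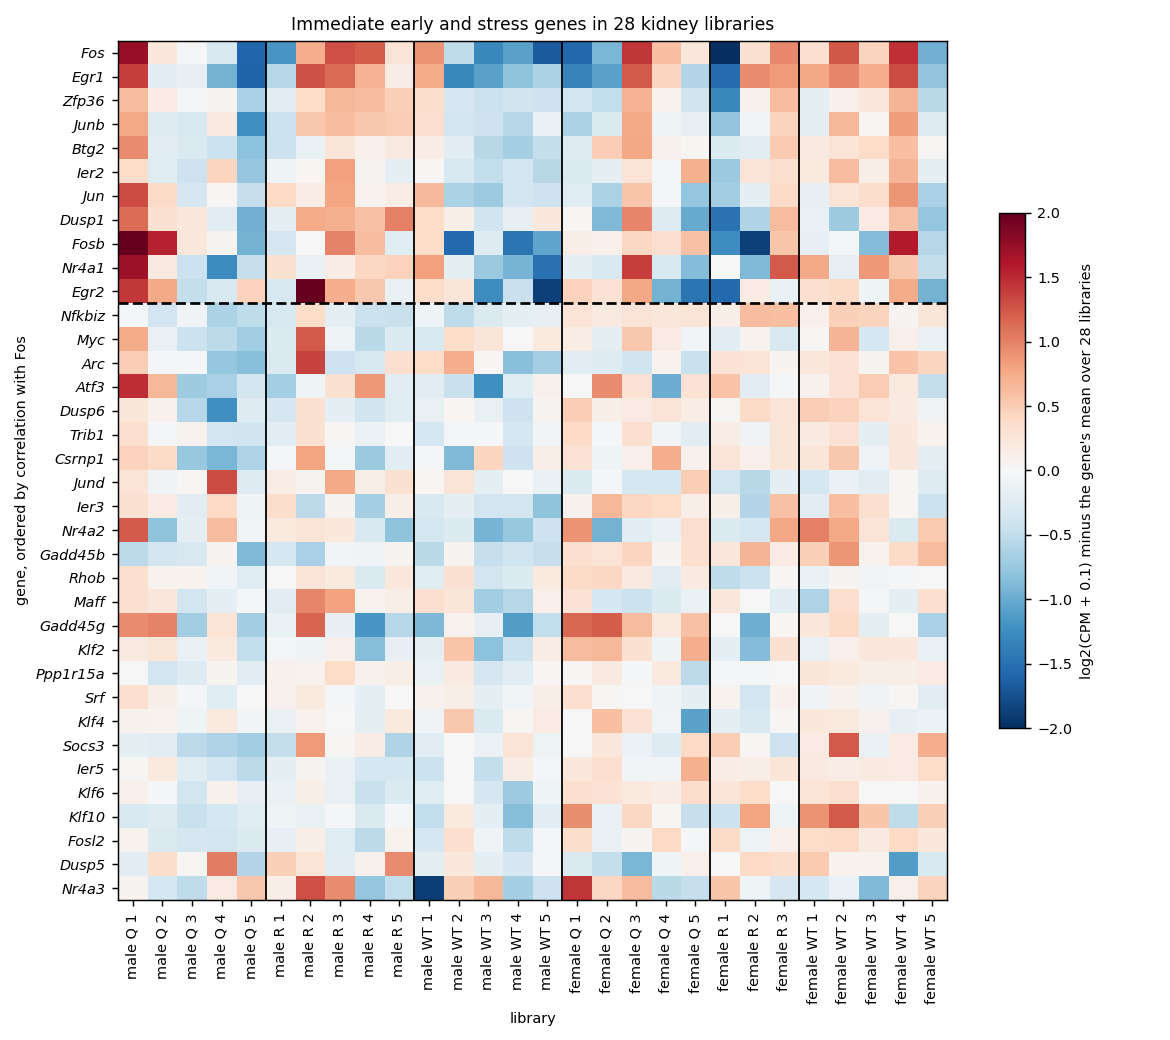
Each row is 1 of the 36 tested members, ordered by its correlation with Fos, and each column 1 of the 28 kidney libraries, with vertical lines between the 6 groups. Colour gives log2(CPM + 0.1) minus the gene's mean over libraries, and the dashed line parts Fos and the 10 members with r above 0.5 from the others. Above that line whole columns are red (male Q 1, female Q 3, female WT 4) or blue (male Q 5, female R 1) in most groups.

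Individual libraries were high or low for the Fos group together. Male Q 1 was among the 5 highest libraries for 10 of the 11 genes, female WT 4 and female Q 3 for 9 each and male R 3 for 8. Female R 1 was among the 5 lowest for 9 and male Q 5 for 7, followed by male WT 3 and male WT 5 for 6 each. The 4 high libraries thus came from all 3 genotypes and both sexes. Jun, the main partner of Fos in AP-1, was at 157, 82.9, 50.3, 64.1 and 45.8 CPM in male Q and at 99.8, 40.8, 38.4, 48.3 and 47.5 CPM in male WT, male Q 1 and male WT 1 being the highest of their groups. It was at 83.8, 70.5, 109, 66.4 and 69.9 CPM in male R, and in females at 53.6, 40.8, 92.8, 61.7 and 37 CPM in Q, 38.9, 55.6 and 82.2 CPM in R and 56.4, 75.6, 80.4, 117 and 40.3 CPM in WT, where all groups overlapped. Zfp36 was at 16.4, 42.3 and 61.7 CPM in the 3 female R libraries, 3.77-fold apart between female R 1 and female R 3, and at 34.9, 43.2, 46.8, 64.1 and 27.5 CPM in female WT. Junb and Dusp1 showed the same order in female R, at 22.7, 37.8 and 53.6 CPM and 28.7, 52.6 and 124 CPM.

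None of 14 measured properties of the libraries had a correlation with Fos that passed. Its r was 0.06 with total counts, -0.08 with the mitochondrial share, 0.08 with the summed level of leukocyte markers, -0.02 with endothelial and -0.18 with tubule injury markers. The strongest of the 14 such relations was with adipocyte markers (r -0.37, rho -0.37, unadjusted permutation p 0.054 and adjusted p = 0.756 for r). The number in the library code, the sole order in the labels, gave r 0.26 (permutation p = 0.189). Time from death to freezing, order of collection and the exact hour within the 2 to 5 h window are not in the labels, and their part was not tested.

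**Figure D2:**
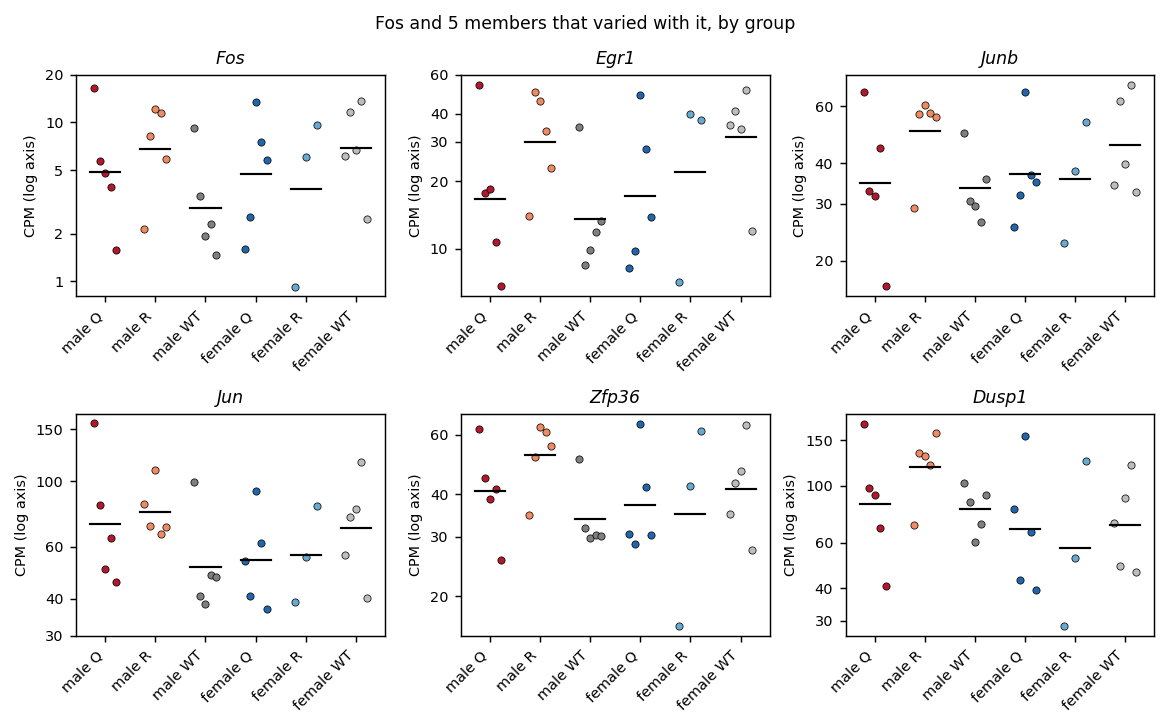
CPM on a log axis of Fos, Egr1, Junb, Jun, Zfp36 and Dusp1 in each library, by group, with the geometric mean of each group as a bar. The 6 groups overlap for each gene. For Fos the male Q 1 library (16.6 CPM) is the highest and the female R 1 library (0.928 CPM) the lowest, and other libraries are at the extremes for some of the other genes.

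Male Q against male WT asks whether mimicking acetylation of aquaporin-3 moved the members in males. No member was called at an adjusted p under 0.05 (0% of all genes were), and 3 of 36 had an unadjusted p under 0.05, against 5.1% of all genes; DESeq2's Wald test called 0 members too. Estimates were positive for 24 of 36 members, and their median was 0.17 on the log2 scale, against 0.01 over all tested genes. Fosb had the smallest p. It was at 6.68, 2.27, 0.850, 0.747 and 0.325 CPM in male Q and at 0.955, 0.177, 0.581, 0.196 and 0.294 CPM in male WT, a log2 fold change of 2.24 (SE 0.660, unadjusted p = 0.00207, adjusted p = 0.795). The groups overlapped, and 1 library, male Q 1, held the highest value.

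Ier3, an early-response gene that protects from apoptosis, was at 44.3, 40.2, 31.2, 47.5 and 34 CPM in male Q and at 29, 31.3, 27.7, 27.8 and 20.7 CPM in male WT. Its log2 fold change was 0.53 (SE 0.208, unadjusted p = 0.0169, adjusted p = 0.917), and male Q 3 lay within the male WT range. Nr4a2, a nuclear receptor, was at 1.85, 0.379, 0.637, 1.18 and 0.705 CPM in male Q and at 0.553, 0.590, 0.339, 0.392 and 0.529 CPM in male WT, with 0.98 (SE 0.416, unadjusted p = 0.0255, adjusted p = 0.917). Atf3, a bZIP factor induced by many stresses, was at 4.94, 2.78, 1.01, 1.06 and 1.30 CPM in male Q and at 1.46, 1.24, 0.678, 1.44 and 1.82 CPM in male WT, with 0.75 (SE 0.396, unadjusted p = 0.07, adjusted p = 0.917). Atf3 was at 1.03, 1.6, 2.14, 3.23 and 1.45 CPM in male R, and in females at 1.73, 3.39, 2.12, 0.810 and 2.13 CPM in Q, 2.59, 1.47 and 1.66 CPM in R and 1.83, 2.11, 2.49, 1.99 and 1.2 CPM in WT. All 6 groups overlapped for Atf3. For Fosb, Nr4a2 and Atf3 the male Q 1 library was the highest of its group.

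Several of the male Q estimates rested on that library. Without male Q 1 the log2 fold change against male WT was 0.10 for Fos in place of 0.81, -0.23 for Egr1 in place of 0.46, 1.18 for Fosb, 0.59 for Nr4a2, 0.21 for Atf3 and 0.14 for Jun in place of 0.54, and the median over members was -0.02. Male WT 1 was the highest male WT library for Fos, at 9.20 CPM.

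Male R against male WT gave 30 of 36 positive estimates and a median log2 fold change of 0.31, against 0.00 over all tested genes, yet no member was called and no gene of the table (0%). Unadjusted p was under 0.05 for 4 members, against 2.13% of all genes, and DESeq2 called 0. Egr2 was at 0.365, 2.69, 0.866, 0.750 and 0.430 CPM in male R and at 0.654, 0.590, 0.145, 0.327 and 0.0588 CPM in male WT, with 1.53 (SE 0.599, unadjusted p = 0.0163, adjusted p = 1). Male R 2 alone reached above 1 CPM, and without it the estimate was 0.76. Zfp36 was at 34.8, 51.6, 63.3, 61.2 and 55.7 CPM in male R and at 50.9, 31.7, 29.7, 30.3 and 30.1 CPM in male WT, with 0.63 (SE 0.298, unadjusted p = 0.0465, adjusted p = 1). There 4 of the 5 male R libraries were above all male WT libraries, and male R 1 lay within the male WT range.

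Ier2, an early nuclear protein, was at 16.4, 17.7, 30.6, 17.9 and 15.3 CPM in male R and 17.6, 13.9, 12.3, 13.3 and 11.8 CPM in male WT, with 0.51 (SE 0.247, unadjusted p = 0.048, adjusted p = 1). Without male R 3 its estimate was 0.30. Ppp1r15a, the phosphatase subunit that reverses eIF2 alpha phosphorylation, was at 17.6, 17.3, 21.2, 17.5 and 18 CPM in male R and 14.9, 18.6, 13.1, 14.1 and 16.7 CPM in male WT, with 0.24 (SE 0.117, unadjusted p = 0.0481, adjusted p = 1). Fos itself had 1.1 (SE 0.689, adjusted p = 1) with a 95% interval of -0.33 to 2.53, and 1.81 without male WT 1; Egr1 had 1.08 (SE 0.606, adjusted p = 1), and Jun 0.54 (SE 0.348, adjusted p = 1). The intervals of Fos and Egr1 span 0 and reach above 2 on the log2 scale, so both 0 and a change of that size lie within them. Markers of some other cell types leaned the same way in male R against male WT. Positive estimates were found for 5 of 5 tested adipocyte (median 0.92), 6 of 6 urothelial (0.16) and 9 of 11 leukocyte markers (0.12). So were they for 7 of 8 smooth muscle and pericyte (0.07) and 4 of 5 erythroid markers (0.22). Others leaned down: 0 of 6 proximal tubule (-0.20), 0 of 5 collecting duct (-0.16) and 0 of 3 distal convoluted tubule markers (-0.10) were positive. Thick ascending limb and podocyte markers were positive for 1 of 4 each (-0.03 and -0.08). In all these lists 0 were called. The summed level of the adipocyte markers was 37.3 to 203 CPM in male R and 40.1 to 116 CPM in male WT, and that of the urothelial markers 19.8 to 41.3 CPM in male R and 17 to 51.3 CPM in male WT. Their part in the estimates of the members was not tested. The male Q and male R comparisons share the male WT libraries.

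Between male Q and male R, 13 of 36 estimates were positive and 0 members were called by edgeR or by DESeq2 (0% of all genes by edgeR), with 3 at an unadjusted p under 0.05, against 4.1% of all genes. Ppp1r15a was at 16.4, 12.6, 13.9, 17.2 and 14.1 CPM in male Q, with -0.30 (SE 0.117, unadjusted p = 0.0148, adjusted p = 1) against male R, whose values are given above. Socs3 was at 3.03, 2.97, 2.39, 2.24 and 2.11 CPM in male Q and 2.49, 6.36, 3.57, 3.86 and 2.26 CPM in male R, with -0.55 (SE 0.260, unadjusted p = 0.0427, adjusted p = 1), or -0.26 without male R 2, the highest library. Fosb was at 0.547, 0.707, 1.53, 1.15 and 0.591 CPM in male R, and male Q against it gave 1.25 (SE 0.610, unadjusted p = 0.0494, adjusted p = 1), or 0.19 without male Q 1.

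In females more estimates were negative than positive. Against female WT, 14 of 36 members were positive in female Q (median log2 fold change -0.04) and 7 of 36 in female R (median -0.17), both set against the same female WT libraries, and 0 members were called in either comparison by edgeR or DESeq2 (0% of all genes by edgeR). Over all tested genes the medians were -0.0045 and -0.0046. Unadjusted p was under 0.05 for 1 member in Q and 0 in R, against 2.94% and 1.92% of all genes. Gadd45g, which binds stress kinases and cell cycle regulators, was at 92.2, 95.9, 64.6, 47.7 and 62.7 CPM in female Q and 48.7, 54.4, 36.5, 41.4 and 26.5 CPM in female WT, with 0.81 (SE 0.388, unadjusted p = 0.0486, adjusted p = 1). Female Q 4 lay within the WT range. Klf2, known for its induction by shear stress in endothelium, was at 21.6, 21.9, 17, 13 and 22.8 CPM in female Q and 12.5, 14.9, 16.1, 16 and 12.6 CPM in female WT, with 0.42 (SE 0.220, unadjusted p = 0.0685, adjusted p = 1). Socs3 was at 3.46, 4.11, 3.21, 2.89 and 4.64 CPM in female Q and 3.90, 8.29, 3.19, 3.92 and 5.87 CPM in female WT, with -0.47 (SE 0.248, unadjusted p = 0.0692, adjusted p = 1), female WT 2 being the highest; without it the estimate was -0.20.

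Female R, with 3 libraries, had the fewest values of any group. Rhob was at 61.6, 65.6 and 89.1 CPM in female R and 80.2, 91.7, 84.7, 85.3 and 87.6 CPM in female WT, with -0.25 (SE 0.159, unadjusted p = 0.124, adjusted p = 1). Socs3 was at 4.93, 3.56 and 2.61 CPM in female R, with -0.45 (SE 0.290, unadjusted p = 0.131, adjusted p = 1) against the female WT values above. Klf10, a TGF-beta early-response factor, was at 11.7, 27.4 and 15 CPM in female R and 29.7, 37.4, 23.4, 11.1 and 22.1 CPM in female WT, with -0.47 (SE 0.299, unadjusted p = 0.132, adjusted p = 1). These estimates moved with single libraries, from -0.43 (without female R 3) to -0.15 (without female R 1) for Rhob, from -0.72 (without female R 1) to -0.19 (without female WT 2) for Socs3 and from -0.89 (without female R 2) to -0.23 (without female R 1) for Klf10. All 11 genes of the Fos group had negative estimates in female R (median -0.31), and Fos had -0.55 (SE 0.783, adjusted p = 1); it was -1.24 without female R 3 and -0.04 without female R 1. The 11 genes vary together from library to library, so their signs are not independent of each other.

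Female Q against female R had 23 of 36 positive estimates and 0 calls by edgeR or DESeq2 (0% of all genes by edgeR), with 3 members at an unadjusted p under 0.05, against 3.03% of all genes. Rhob was at 114, 118, 100.2, 74.9 and 99.9 CPM in female Q, with 0.49 (SE 0.161, unadjusted p = 0.00455, adjusted p = 0.998) against female R. Klf2 was at 12.2, 7.55 and 17 CPM in female R, and female Q against it gave 0.65 (SE 0.259, unadjusted p = 0.0187, adjusted p = 0.998), or 0.40 without female R 2 and 0.96 without female R 3. Endothelial markers moved the same way, 8 of 9 having positive estimates in female Q against female R (median 0.12, 2 at an unadjusted p under 0.05) and 9 of 9 negative ones in female R against female WT (median -0.11, 4 at an unadjusted p under 0.05), with 0 called. Their summed level was 631 to 722 CPM in female Q, 571 to 601 CPM in female R and 612 to 723 CPM in female WT, and their part in the Klf2 estimate was not tested. Gadd45g was at 41.9, 21 and 42.9 CPM in female R and all 5 female Q libraries were above all 3, with 1.04 (SE 0.463, unadjusted p = 0.0349, adjusted p = 0.998).

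Averaged over both sexes, Q against WT, R against WT and Q against R had 0 members called (0% of all genes by edgeR), and 4, 0 and 4 members had an unadjusted p under 0.05, against 4.72%, 1.34% and 3.93% of all genes. Gadd45g and Fosb were among the 4 in both comparisons of Q, which share the Q libraries.

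**Figure D3:**
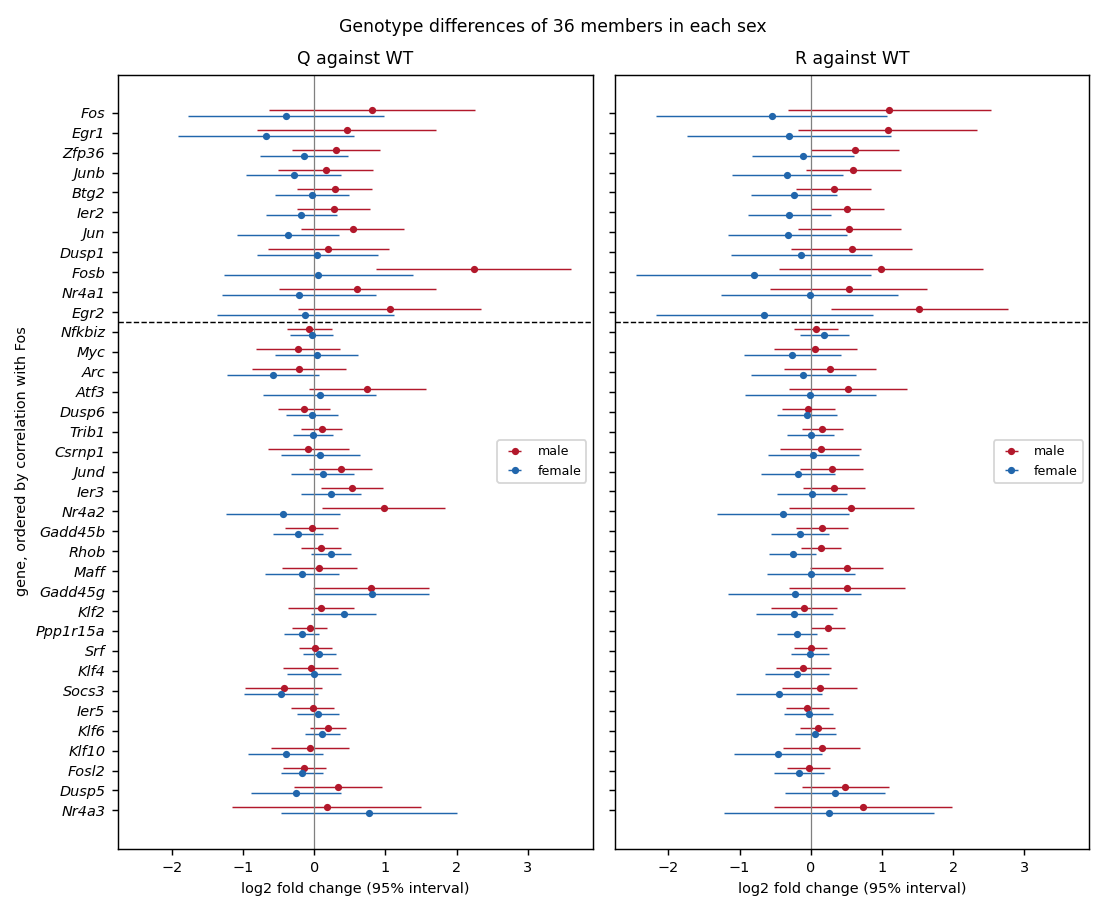
Log2 fold change with its 95% interval for the 36 tested members, Q against WT on the left and R against WT on the right, males in red and females in blue, ordered by correlation with Fos. In the Fos group, above the dashed line, male points lie to the right of 0 and most female points to the left, with intervals that span 0 for all but 3 male values, Fosb in Q (2.24) and Zfp36 (0.63) and Egr2 (1.53) in R.

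Whether the genotype difference itself differed between the sexes was tested as an interaction. For Q against WT, 25 of 36 members had a positive interaction (median 0.22) and 2 an unadjusted p under 0.05, against 3.11% of all genes: Nr4a2 1.42 (SE 0.567, unadjusted p = 0.0183, adjusted p = 0.999) and Fosb 2.18 (SE 0.921, unadjusted p = 0.0249, adjusted p = 0.999). For R against WT, 34 of 36 were positive (median 0.47, against 0.00 over all tested genes) and 3 had an unadjusted p under 0.05, against 2.82% of all genes: Ppp1r15a 0.44 (SE 0.179, unadjusted p = 0.0212, adjusted p = 0.992), Egr2 2.18 (SE 0.951, unadjusted p = 0.029, adjusted p = 0.992) and Ier2 0.81 (SE 0.377, unadjusted p = 0.0403, adjusted p = 0.992). No member passed in either (0% of all genes did), by edgeR or DESeq2. Fos had 1.65 (SE 1.05, adjusted p = 0.992) for R, with an interval of -0.52 to 3.83. Leaving out 1 library at a time gave a median of 0.08 to 0.32 for the Q interaction, lowest without male Q 1, and of 0.38 to 0.55 for the R interaction. Markers of some other cell types moved with the R interaction. Positive estimates, with 0 called, were found for 5 of 5 adipocyte markers (median 1.91), 6 of 6 urothelial (median 0.65) and 9 of 9 endothelial markers (median 0.12). Not all lists did so. Proximal tubule markers were positive for 0 of 6 in male R (median -0.20) and 5 of 6 in female R (median 0.09), each against WT of its sex. Thick ascending limb markers were positive for 1 of 4 in male R (median -0.03) and 3 of 4 in female R (median 0.06). The part of any of these cell types in the members' shift was not tested.

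Differences between the sexes were the only ones called among the members, and all ran lower in males. Gadd45b and Nfkbiz were lower in males of all 3 genotypes; Gadd45b is a stress sensor induced by TGF-beta and NF-kB, and Nfkbiz encodes a nuclear IkB protein that directs a second wave of inflammatory genes. Klf6, an early factor of kidney epithelium and endothelium, was lower in Q and in WT males. In all, 5 of 36 members fell in male Q, 2 in male R and 5 in male WT against females of the same genotype. Of all genes, 11.2%, 7.01% and 8.31% were called lower in males, and 23.1%, 14.1% and 16.5% in either direction. The shares of the 36 called lower are near those of the whole table, so that count is not a result about the set. By edgeR 0 members were called higher in males, where 11.9%, 7.07% and 8.22% of all genes were.

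Gadd45b was at 3.76, 4.23, 4.35, 5.66 and 2.93 CPM in male Q and 6.97, 6.67, 7.41, 5.67 and 6.88 CPM in female Q, with -0.69 (SE 0.176, adjusted p = 0.0045). In R it was at 4.26, 3.44, 5.25, 5.19 and 5.70 CPM in males and 6.40, 8.83 and 6.17 CPM in females, with -0.58 (SE 0.198, adjusted p = 0.0475). In WT it was at 3.72, 5.66, 3.97, 4.12 and 3.94 CPM in males and 7.68, 10.2, 5.73, 7.20 and 8.53 CPM in females, with -0.88 (SE 0.175, adjusted p = 0.000481). No male library reached any female library of its genotype in all 3 comparisons. The calls in Q and WT held without any 1 of the 10 libraries, whereas that in R was lost without each of male R 1 to 4 and female R 1 to 3 (estimates -0.66 to -0.40).

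Nfkbiz was at 8.92, 7.01, 8.71, 5.85 and 6.40 CPM in male Q and 11, 10.4, 10.9, 10.7 and 11.1 CPM in female Q, with -0.55 (SE 0.149, adjusted p = 0.00691). In R it was at 7.30, 11.9, 7.95, 6.75 and 6.67 CPM in males and 10.1, 14 and 14 CPM in females, with -0.64 (SE 0.168, adjusted p = 0.008), and male R 2 lay above the lowest female. In WT it was at 8.65, 6.43, 7.50, 8.04 and 8.11 CPM in males and 9.82, 12.7, 12.6, 9.48 and 10.9 CPM in females, with -0.52 (SE 0.149, adjusted p = 0.014). Groups did not overlap in Q or WT. The call in WT was lost without female WT 2 and that in R without female R 2 or female R 3, with estimates over all single removals of -0.56 to -0.46 in WT and -0.82 to -0.55 in R.

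**Figure D4:**
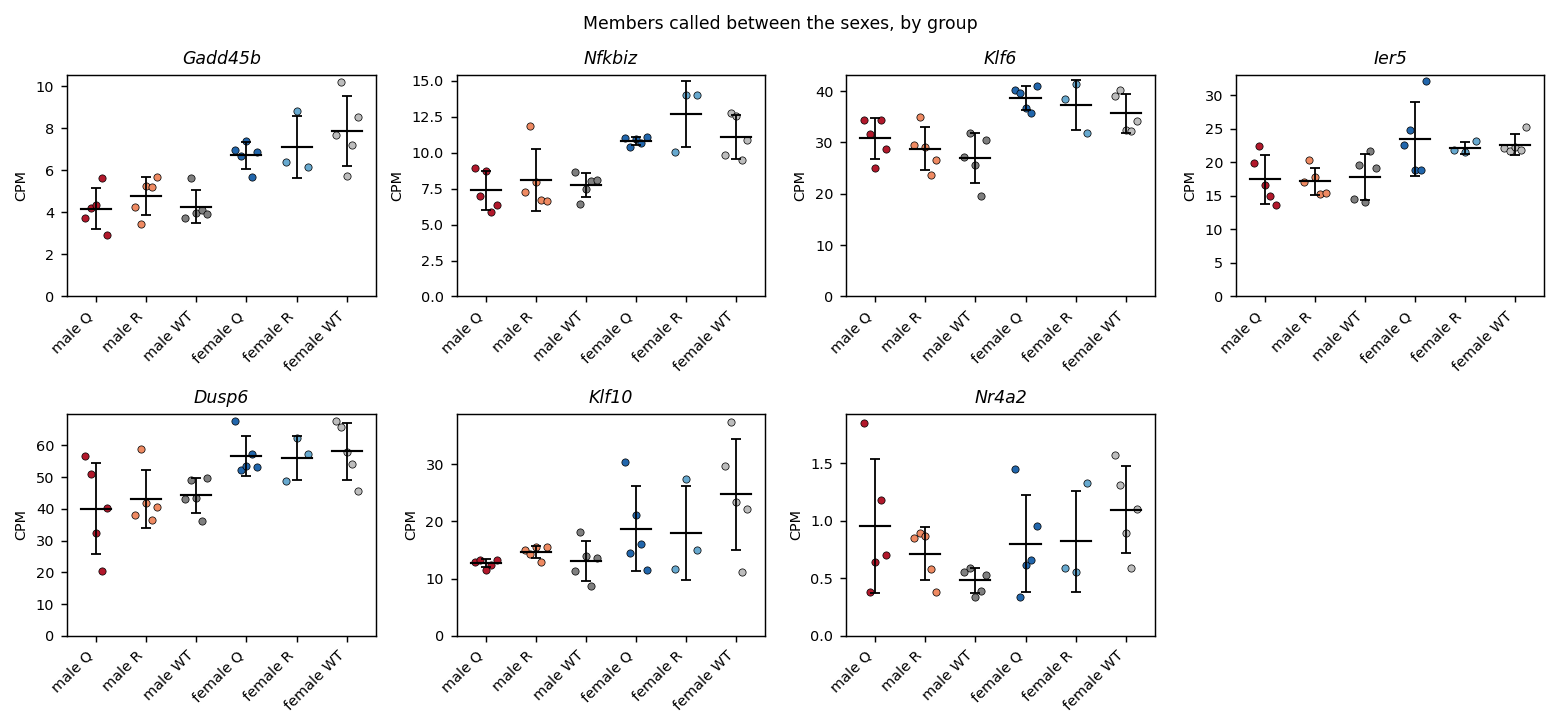
CPM of the 7 members called between the sexes in at least 1 genotype, in each library, with the mean and SD of each group as a bar and whiskers. Gadd45b averages 4.28 ± 0.785 CPM in male WT and 7.87 ± 1.66 CPM in female WT (SD, n = 5 each), and the male groups of Gadd45b lie below the female groups of the same genotype.

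Klf6 averaged 30.8 ± 4.02 CPM in male Q and 38.6 ± 2.28 CPM in female Q (SD, n = 5 each), with -0.33 (SE 0.119, adjusted p = 0.0451), and 26.9 ± 4.86 CPM in male WT and 35.6 ± 3.80 CPM in female WT (SD, n = 5 each), with -0.40 (SE 0.119, adjusted p = 0.017). The remaining calls were in 1 genotype each. In Q, Ier5, an early gene linked to heat shock factor activity, averaged 17.5 ± 3.64 CPM in males and 23.5 ± 5.49 CPM in females, with -0.42 (SE 0.144, adjusted p = 0.0309), and the ERK phosphatase gene Dusp6 averaged 40.1 ± 14.5 CPM in males and 56.8 ± 6.35 CPM in females, with -0.50 (SE 0.178, adjusted p = 0.0405) (SD, n = 5 each). In WT, Klf10 was at 11.3, 18.2, 14, 8.69 and 13.6 CPM in males, with -0.91 (SE 0.260, adjusted p = 0.0145) against the female values above, and Nr4a2 was at 0.553, 0.590, 0.339, 0.392 and 0.529 CPM in males and 1.57, 1.31, 0.897, 0.585 and 1.1 CPM in females, with -1.18 (SE 0.410, adjusted p = 0.0465). The WT groups overlapped for both Klf10 and Nr4a2. Without male Q 4 and female Q 5, the libraries with the lowest mitochondrial shares, Ier5 and Dusp6 lost their calls (-0.23 and -0.35). Without the library labelled female WT 2 only Gadd45b was still called in WT (-0.76), and Klf10 was at -0.71 and no longer passed. The Klf6 call was lost without any of 3 libraries in WT (male WT 4, female WT 1 and female WT 2) and 8 of 10 in Q, that of Nr4a2 without 9 of 10, of Dusp6 without 6 and of Ier5 without 5.

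None of the 7 members called between the sexes belonged to the Fos group, and their r with Fos ran from -0.04 to 0.38. The Fos group held the members with the widest spread, so a sex difference was harder to call in it. With 7.01% to 11.2% of all genes called lower in males, 0 of 11 is not a result about that group. Its median log2 fold change between the sexes in WT was -0.64 (10 of 11 negative), against -0.28 for the other tested members. The medians were 0.12 and -0.26 in Q, and 0.44 and -0.002 in R. Fos itself had log2 fold changes between the sexes of 0.07 (SE 0.671, adjusted p = 0.956) in Q, 0.52 (SE 0.783, adjusted p = 0.725) in R and -1.13 (SE 0.689, adjusted p = 0.298) in WT, and Egr1 of -0.01, 0.24 and -1.15. Over the set, 12 of 36 members (33.3%) had negative estimates in all 3 genotypes, against 35.7% of all tested genes, and 4 of 36 had positive ones in all 3, against 29.7% of all tested genes. Whether the sex difference itself differs between WT and Q or R is the interaction given above, in which no member passed.

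**Figure D5:**
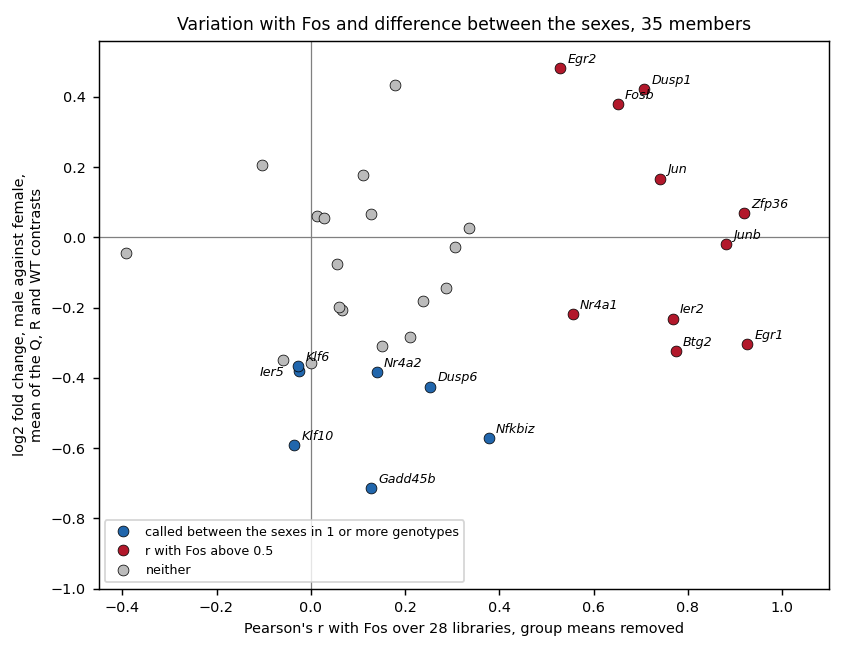
Each point is 1 of the 35 tested members other than Fos, with its Pearson's r with Fos over 28 libraries (group means removed) on the x axis and the mean of its log2 fold changes between males and females in Q, R and WT on the y axis. The 10 members with r above 0.5 (red) lie to the right on both sides of 0, and the 7 called between the sexes (blue) lie lower, with r of 0.38 or less.

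Markers of several cell types also differed between the sexes, beside Gadd45b, Nfkbiz, Klf6 and the other calls. Of all genes, 11.2%, 7.01% and 8.31% were called lower in males in Q, R and WT. All 4 podocyte markers were called lower in males in Q and WT and 3 of 4 in R, and their summed level was 160.0 to 243 CPM in males and 217 to 309 CPM in females. Of 9 endothelial markers, 2 were called lower in Q, 0 in R and 4 in WT, their sum being 475 to 609 CPM in males and 571 to 723 CPM in females. Of 8 smooth muscle and pericyte markers, 2, 1 and 2 were called lower in Q, R and WT, with sums of 124 to 164 CPM in males and 161 to 196 CPM in females, and of 8 tubule injury markers 3, 1 and 3 were, with sums of 665 to 1022 CPM in males and 1379 to 2074 CPM in females. Another tubule injury marker, Havcr1, was called higher in male R than in female R, with a log2 fold change of 2.18 (adjusted p = 0.0119). All markers of these 4 lists passed the filter on low counts. Tubule segments differed too. Of 4 thick ascending limb markers 3 were called lower in males in Q and 1 in WT, with sums of 2542 to 4516 CPM in males and 4265 to 5977 CPM in females. Of 5 tested collecting duct markers 3 and 2 were called lower in Q and WT, and of 3 distal convoluted tubule markers 1 and 1. Of 6 proximal tubule markers 1 was called lower in Q, and 1 higher in each of Q and WT. Of 11 leukocyte markers 0 were called lower in males in Q and 1 in WT, with sums of 225 to 466 CPM in males and 246 to 562 CPM in females. Of the sums given here, only those of the tubule injury markers did not overlap between the sexes. The part of these cells in the lower levels of the members was not tested, and in bulk kidney fewer cells of a type and less RNA per cell cannot be told apart.

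Lists of genes in the pathway around the members had no genotype call either, in comparisons where 0% of all genes were called. Among 22 kinases and factors upstream (ERK, SRF and CREB pathway), 9 had positive estimates in male Q and 9 in male R against male WT, with medians of -0.02 and -0.04, and the smallest p in each was that of Map2k1, -0.21 (unadjusted p = 0.0223, adjusted p = 0.917), and Mapk8, -0.18 (unadjusted p = 0.12, adjusted p = 1). Of 11 other feedback inhibitors of ERK, 6 were positive in each comparison, led by Dusp8 in male Q, 0.54 (unadjusted p = 0.0344, adjusted p = 0.917), and by Spry2 in male R, 0.12 (unadjusted p = 0.345, adjusted p = 1). Of 26 other rapidly induced genes, 20 were positive in male Q (median 0.11) and 22 in male R (median 0.19). Hbegf, the heparin-binding growth factor, had 0.45 (unadjusted p = 0.00732, adjusted p = 0.917), Phlda1 0.46 (unadjusted p = 0.00782, adjusted p = 0.917) and Gadd45a 0.47 (unadjusted p = 0.0201, adjusted p = 0.917) in male Q; Gadd45a had 0.50 (unadjusted p = 0.0133, adjusted p = 1) in male R. In females 16 of the 26 were positive in Q (median 0.09) and 10 in R (median -0.09) against WT. None of these lists had a called gene in any comparison of Q or R with WT within a sex. As 0% of all genes were called there, that absence is not a result about the lists.

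Of 8 cytokine and chemokine messages that Zfp36 is known to limit, 4 were tested. Cxcl1, a neutrophil chemokine, had 0.87 (unadjusted p = 0.0377, adjusted p = 0.917) in male Q and 1.11 (unadjusted p = 0.00895, adjusted p = 1) in male R against male WT, and Ccl2 -0.87 and 0.49. Of the 12 heat shock genes, 11 had positive estimates in male Q (median 0.14) and 11 in male R (median 0.22), with 0 called (0% of all genes were). In females 4 of the 12 heat shock genes were positive in Q (median -0.07) and 1 in R (median -0.13) against WT. Integrated stress response genes, a list that includes the factor Atf4, were positive for 7 of 10 in each of male Q and male R (medians 0.09 and 0.20). Chac1 had 0.75 (unadjusted p = 0.104, adjusted p = 1) in male R. Against female WT, 4 of the 10 were positive in female Q and 0 of 10 in female R (medians -0.02 and -0.19). Between the sexes the heat shock genes ran opposite to the called members: 12 of 12 had positive estimates in Q, 12 in R and 9 in WT. Called higher in males were 6, 5 and 3 of them, against 11.9%, 7.07% and 8.22% of all genes. Hspd1, the mitochondrial chaperonin, had log2 fold changes of 0.57 (adjusted p = 2.84e-05), 0.59 (adjusted p = 0.000253) and 0.53 (adjusted p = 0.000111), and Hsp90aa1 of 0.84 (adjusted p = 0.00208), 0.90 (adjusted p = 0.00827) and 0.71 (adjusted p = 0.0122), in Q, R and WT.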

How the data were processed

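Polyadenylated RNA of 28 kidneys' libraries was sequenced, and the authors deposited 1 table of raw read counts per gene, made with featureCounts of Subread 2.0.1 against Ensembl 107 on GRCm39, per the file headers and the submitters' processing notes. The notes also name Trim Galore 0.6.7, SAMtools 1.6 and DESeq2 1.38.3. The aligner is not given in the sources used here, and no strand option stands in the file header, so reads of overlapping antisense genes cannot be told apart. Groups were taken from the labels.

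Counts were filtered with filterByExpr, scaled with TMM and fitted in edgeR 4.0.16 (R 4.3.3) by the robust quasi-likelihood test, with 1 mean for each of 6 groups and 22 residual degrees of freedom. All p-values for fold changes, adjusted or not, are from that fit, and adjusted ones use the Benjamini-Hochberg method over 17573 genes with a threshold of 0.05. Fold changes are log2 and SE is the standard error. Correlations with Fos used log2 CPM with a prior count of 2 and group means removed, and 100000 permutations. DESeq2 1.42.0 was an alternative. Recovery of known changes was checked on simulated counts.

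The members, gene lists and tests were chosen with earlier results of these data known. Fos, Jun, Egr1 and Atf3 are given in every library, and the 3 members with the smallest p, or all those with an unadjusted p under 0.05, in each comparison of 2 genotypes within a sex are given in the libraries of that comparison. The members called between the sexes, and the others named in the account of Fos, were chosen after their values were seen. Promoter windows are RefSeq's on GRCm38.p6. Correlations of Fos over all genes and with library measures were added after seeing the data. Counting error alone does not cover the spread between animals.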

Additional observations from a re-analysis of the deposited data

Results flagged for a closer look

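In 25 of 180 gene and group combinations with 4 or more libraries 1 library stood far from the others by Dixon's criterion at the 95% level. For normally distributed values chance alone gives this in about 5% of groups. The criterion was applied to CPM and not to log2 CPM. Values skewed upward give more high flags than that, so the 5% is no yardstick for these counts. Of the 25 flags 24 were high and 1 was low, and members that vary together are not independent.

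Male Q 1 was high for 6 members: Btg2 at 52.6 CPM (others 15.4 to 23.2), Egr1 at 54.1 CPM (others 6.78 to 18.4), Fos at 16.6 CPM (others 1.57 to 5.68), Fosl2 at 15.9 CPM (others 11.8 to 12.4), Myc at 9.54 CPM (others 3.47 to 5.11) and Nr4a1 at 24.3 CPM (others 3.05 to 8.40). Male R 2 was also high for 6 members: Arc at 6.27 CPM (others 1.78 to 3.06), Dusp6 at 58.9 CPM (others 36.4 to 41.8), Egr2 at 2.69 CPM (others 0.365 to 0.866), Gadd45g at 93.5 CPM (others 18.6 to 37.9), Myc at 13.4 CPM (others 3.86 to 5.30) and Nfkbiz at 11.9 CPM (others 6.67 to 7.95). Myc was thus high in both libraries, and of the other genes only Egr2 in male R 2 belonged to the Fos group, against 4 of the 6 in male Q 1.

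Male WT 1 was high for 4 members, all of the Fos group: Egr1 at 34.8 CPM (others 8.44 to 13.3), Fos at 9.20 CPM (others 1.47 to 3.42), Jun at 99.8 CPM (others 38.4 to 48.3) and Zfp36 at 50.9 CPM (others 29.7 to 31.7). Female Q 3 was high for Junb, at 66.5 CPM (others 25.3 to 36.8), and Nr4a1, at 19.5 CPM (others 4.03 to 6.54). Male R 3 was high for Ier2, at 30.6 CPM (others 15.3 to 17.9), and Ppp1r15a, at 21.2 CPM (others 17.3 to 18). Single values stood out for Fosb in female WT 4, at 2.34 CPM (others 0.349 to 0.702), Gadd45b in male WT 2, at 5.66 CPM (others 3.72 to 4.12), Ier5 in female WT 5, at 25.3 CPM (others 21.7 to 22.3), and Jund in male Q 4, at 158 CPM (others 53.7 to 77.1). Male Q 4 was also the male library with the lowest mitochondrial share. The 1 low value was Junb in male R 1, at 29.1 CPM (others 55.7 to 60.5).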

How the results depend on the processing

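No genotype or interaction contrast had a member called under any alternative run, DESeq2's Wald test included. Counts of members called between males and females moved with the setting. For R, 2 became 1 with DESeq2 size factors, without the filter on low counts, with the replicate block and with the library code as a covariate, and 4 without male Q 4 and female Q 5, of which Jund was higher in males. For WT, 5 became 3 without the filter and 8 without those libraries. For Q, 5 became 3 without the filter. The causes were not tested, other than that more genes were tested without the filter. Leaving out 1 library gave 2 to 7 in Q, 0 to 2 in R and 1 to 6 in WT. The lowest WT count was without female WT 2. The median between male Q and female Q was -0.35 to -0.071, against -0.15, the lowest without male Q 1. Of the 10 members that passed against Fos over 35 relations, 6 passed over all genes. No called estimate reversed, but the median of male Q against male WT was -0.02 without male Q 1, against 0.17. Replicate numbers did not pair libraries: over 65 same-numbered pairs the deviations from group means had a median correlation of 0.01, and 5 were above 0.1. With 3 to 5 libraries a group the precision for Fos was low: its 95% interval in male R against male WT ran from -0.33 to 2.53 on the log2 scale.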

Other observations

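Genes outside the set that stood near the members in their correlation with Fos, and did not pass over all genes, included B-cell genes. Fcer2a had r 0.67 (adjusted p = 0.112, rank 10 of 17572) and Ms4a1 r 0.59 (adjusted p = 0.914, rank 18), by permutation over the 28 libraries. Gdf15, a stress-induced cytokine, was at rank 13 with r 0.62 (permutation, adjusted p = 0.679). These genes were picked after their values were seen, and the summed level of the leukocyte markers had r 0.08 with Fos.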
